A study of Mus musculus with 8 samples.

Results

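The anoctamins, also called the TMEM16 proteins, are a family of 10 genes in the mouse, Ano1 to Ano10, and all 10 were read out of 54532 genes in a bulk RNA-seq study of lung endothelial cells (ECs). The members were taken by gene name. The family was chosen by the measured difference of Ano3 between the groups, picked as the largest rise in hyperoxia, so that difference is given below as a description, with no test. The cells came from wild-type (WT) pups at postnatal day 14 (P14) that had lived from P0 either in room air with 21% O2 (normoxia, 4 libraries) or in 80% O2 (hyperoxia, 4 libraries), an exposure used to model bronchopulmonary dysplasia. Per the study's methods the pups were C57BL/6J, and lung cells were depleted of CD45-positive cells with beads and then captured with CD31 beads, so other cell types can be carried along. No transgene or drug was used in either group. The sources used here do not say whether each library was a separate pup or litter, and p-values therefore measure the spread between these libraries, which may be technical.

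Anoctamins are membrane proteins, and several of them are opened by calcium. Some members are chloride channels, with Ano1 and Ano2 the best known, and others are phospholipid scramblases, which let lipids such as phosphatidylserine cross from one face of a membrane to the other, with Ano6 the best known. Others sit on internal membranes, where Ano8 tethers the endoplasmic reticulum to the plasma membrane. In the lung the family is known mainly for Ano1 in airway epithelium and smooth muscle.

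The 8 libraries held 16098086 to 18300730 counts and 23295 to 24136 detected genes. The pan-endothelial marker list (10 of 10 genes tested) summed to 16866 to 17813 CPM (counts scaled to a common library size) in normoxia and 16971 to 17859 in hyperoxia, so the labelled cell type was present in every library. Single genes of that list did differ, 4 higher and 3 lower in hyperoxia. Tek had a log2 fold change of -0.79 and Eng one of 0.43. The library hyperoxia 3 lay apart from its group. On the first principal component, which held 57.8% of the variance, it lay at 20.3, the other 3 hyperoxia libraries at 40.2 to 42.9 and the normoxia libraries at -43.6 to -28.5. Markers of alveolar epithelium moved with the groups: all 8 alveolar type 1 markers and all 10 type 2 markers rose in hyperoxia. The type 1 list summed to 78.2 to 97.5 CPM in normoxia and to 468, 440.2, 165 and 424 CPM in hyperoxia 1 to 4, and the type 2 list went from 292 to 433 CPM to 878 to 2630 CPM. The mural list summed to 26.6 to 53.3 CPM in normoxia and 49.3 to 114 CPM in hyperoxia, with 6 of its 9 tested genes higher. The aerocyte capillary list also rose, in 6 of 6 genes, from 1849 to 2214 CPM up to 3462 to 3900 CPM.

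Stretches just upstream of annotated start sites of Ano3 and Ano1 are shown because these 2 genes had the widest differences between the groups. They are RefSeq sequence of GRCm38.p6, 5′ to 3′ on the minus strand on which both genes lie, and capitals mark a TATAAA match. The Ano3 stretch is chr2:110840060-110840309, 250 bases, from the inner of its annotated starts. The Ano1 stretch is chr7:144738593-144738823, 231 bases, which leaves out 19 bases next to the start that lie in an annotated exon. This start, at 144738573, also lies inside the annotated gene, whose outer end is at 144751974.
Ano3: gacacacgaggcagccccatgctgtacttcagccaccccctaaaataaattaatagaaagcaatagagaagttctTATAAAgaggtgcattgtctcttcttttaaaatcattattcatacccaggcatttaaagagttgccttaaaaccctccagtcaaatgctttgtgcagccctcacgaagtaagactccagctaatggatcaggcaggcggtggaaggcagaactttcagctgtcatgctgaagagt
Ano1: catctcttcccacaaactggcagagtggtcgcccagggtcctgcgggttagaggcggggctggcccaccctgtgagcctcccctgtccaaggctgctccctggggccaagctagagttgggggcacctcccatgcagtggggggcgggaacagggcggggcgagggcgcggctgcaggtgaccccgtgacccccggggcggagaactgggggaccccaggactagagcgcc

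The 2 stretches differed in base composition. The 250 bases before the Ano1 start held 16 CpG dinucleotides and 72.0% G or C, and 76.5% of the 32841 RefSeq promoter entries held as many CpG or fewer. The Ano3 stretch held 3 CpG and 43.6% G or C, and 37.8% of entries held as many or fewer. Entries existed for 8 of the 10 members, with none for Ano8 and Ano9. On both strands, the letters TATAAA occurred in 12.4% of all entries, the hypoxia response core ACGTG or GCGTG in 38.6%, the antioxidant response element TGACNNNGC in 10.2% and a p53 half-site in 7.13%. The Ano3 stretch matched TATAAA alone, at positions -175 to -170 from the start, and the Ano1 window matched none of these. The window of the outer Ano3 start, at 110950244 on chromosome 2, held the hypoxia core 3 times over both strands, 2 of them overlapping matches on opposite strands. That window lies wholly in an annotated exon and is not printed. The hypoxia core was also found before 1 start of Ano2 and before Ano10, the antioxidant response element before Ano5, and a p53 half-site before that start of Ano2 and before Ano6. The Ano6 window, all 250 bases, and 200 of the 250 bases of that Ano2 window also lie in annotated exons. Such matches are letters only, and counts per gene do not show which start was used.

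Ano3 (ENSMUSG00000074968) lies on chromosome 2 at 110655201 to 110950923 (mm10), minus strand, and encodes an anoctamin that is best known from the brain, where variants of the human gene are linked to dystonia. Its counts were 3, 5, 9 and 1 in normoxia 1 to 4 and 344, 393, 308 and 371 in hyperoxia 1 to 4. The corresponding levels were 0.184, 0.285, 0.503 and 0.0552 CPM in normoxia and 19.6, 22.3, 17.6 and 20.6 CPM in hyperoxia. Every hyperoxia library was far above every normoxia library. The group means were 0.257 ± 0.189 CPM (SD, n = 4) and 20.03 ± 1.93 CPM (SD, n = 4), a ratio of 78.0, and the log2 fold change was 6.24 (SE 0.263). Among 13277 protein-coding genes tested it ranked 2 by log2 fold change with no minimum level set. The hyperoxia libraries were alike, with a coefficient of variation of 9.64%, against 73.8% over the few counts in normoxia. In bulk RNA, fewer or more cells of a type and less or more RNA per cell cannot be told apart.

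Hyperoxia 3 had the lowest level in its group of both Ano3 and the alveolar type 1 markers, by different amounts. In hyperoxia 3, where the type 1 list summed to 165 CPM, Ano3 was at 17.6 CPM, and in the other 3 hyperoxia libraries, where that list summed to 424 to 468 CPM, it was at 19.6 to 22.3 CPM. Relative to Ager, a defining type 1 marker, Ano3 stood at 0.246% to 2.32% in normoxia and at 9.97% to 29.1% in hyperoxia, with hyperoxia 3 at the top. This ratio was chosen after the values were seen. With the epithelial score (mean log2 CPM of both alveolar lists) as a covariate, the log2 fold change of Ano3 was 5.78 (SE 0.475), and with the mural score it was 5.94. The epithelial score separated the groups without overlap, so the part of these markers cannot be told apart from that of the exposure. Which cell type the Ano3 reads came from was not tested. Neuron and glia markers were low, with Syt1 at 0 in every library and the summed list at no more than 8.34 CPM in any normoxia library against 7.76 to 9.43 CPM in hyperoxia. Muc15, a membrane mucin gene on the opposite strand within Ano3, shares 61 exon bases, 0.845% of those of Ano3. It had 0 counts in normoxia and 2, 4, 0 and 6 in hyperoxia 1 to 4.

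The 5 protein-coding genes most like Ano3 across the 8 libraries, by Pearson's r of log2 CPM among genes with a mean of at least 1 CPM, were Ephb1 (0.998), Slc22a23 (0.997), Plekho2 (0.996), Mgat5 (0.994) and Trp53inp1 (0.994). These r values are descriptions over libraries that share the 2 separate groups. Ephb1, an ephrin receptor kinase, had a normoxia mean of 6.06 CPM and a hyperoxia mean of 18.8 CPM. Mgat5, a Golgi enzyme that branches N-glycans, stood at 33.6 and 104 CPM, and Trp53inp1, a p53-inducible gene, at 55.5 and 142 CPM. The means of Plekho2 were 38.5 and 90.6 CPM, and those of Slc22a23, an orphan solute carrier, 140.1 and 225 CPM. Their log2 fold changes, from 0.69 for Slc22a23 to 1.63 for Ephb1, were well below that of Ano3. Within the family, r with Ano3 was 0.937 for Ano1, 0.794 for Ano10, -0.287 for Ano6 and -0.851 for Ano8.

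**Figure D1:**
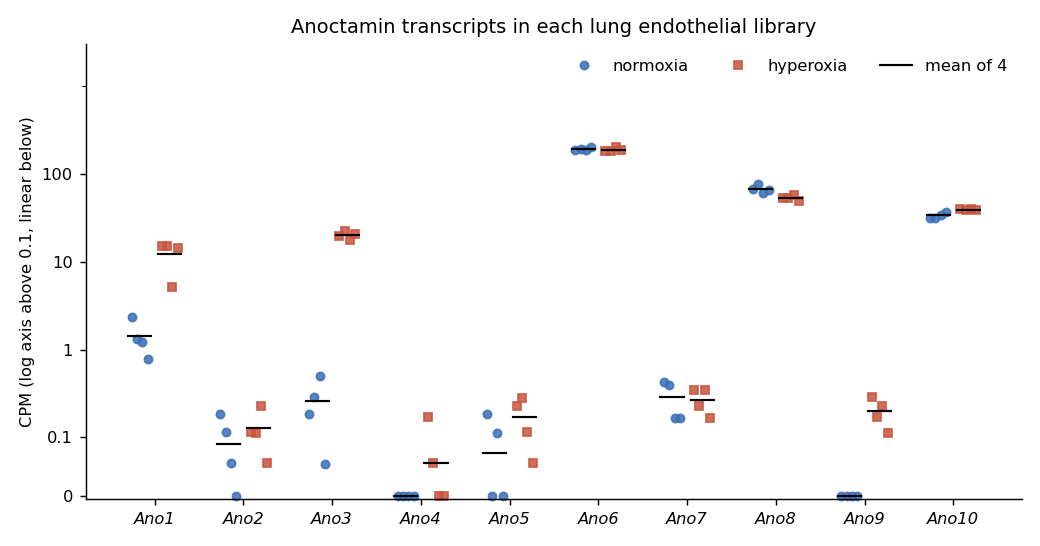
CPM of the 10 anoctamin genes in each of the 4 normoxia (circles) and 4 hyperoxia (squares) libraries, on an axis that is logarithmic above 0.1 and linear below, with a bar at each group mean. Ano3 went from at most 0.503 CPM to at least 17.6 CPM, Ano1 in hyperoxia 3 lay at 5.09 CPM below the other hyperoxia libraries, and the Ano6 groups overlapped.

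The other members were tested with edgeR's quasi-likelihood test, with Benjamini-Hochberg adjustment over the 15564 genes that passed a filter on low counts. The filter was passed by 5 members: Ano1, Ano6, Ano8, Ano10 and Ano3, the last through its hyperoxia libraries alone. Of the 4 tested other than Ano3, 3 had an adjusted p under 0.05, Ano1 and Ano10 higher and Ano8 lower, where 35.6% of all genes tested passed (18.4% higher and 17.2% lower). With a log2 fold change of at least 1 in size also asked, 1 passed, Ano1, against 6.96% of all genes (5.57% higher). With Ano3 again left out, the groups did not overlap in 3 of the 4 (Ano1, Ano8 and Ano10), against 35.4% of all genes tested, and hyperoxia was the higher group in 2 of these, against 17.8% of all genes. With so few members these shares are a description.

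Ano1 (ENSMUSG00000031075) lies on chromosome 7 at 144588549 to 144751974, minus strand, and encodes the calcium-activated chloride channel TMEM16A. Its levels were 2.33, 1.31, 1.23 and 0.773 CPM in normoxia 1 to 4 (38, 23, 22 and 14 counts) and 15.2, 14.9, 5.09 and 14.2 CPM in hyperoxia 1 to 4 (266, 263, 89 and 256 counts). All hyperoxia libraries were above all normoxia libraries, and hyperoxia 3 was well below the other 3. The means were 1.41 ± 0.655 and 12.3 ± 4.85 CPM (SD, n = 4 each), a ratio of 8.76. The log2 fold change was 3.14 (SE 0.436, edgeR adjusted p = 0.000783), and 3.40 (adjusted p = 1.641e-06) without hyperoxia 3.

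The level of Ano1 moved with the alveolar type 1 markers, also within the hyperoxia group, where the pattern rested mainly on hyperoxia 3. It was not particular to type 1 markers, because hyperoxia 3 was also lowest for other lists. In hyperoxia 1 to 4 the type 2 list summed to 2630, 2534, 878 and 2266 CPM. The mural list gave 78.7, 114, 49.3 and 85.3 CPM, and the fibroblast list 305, 362, 140 and 271 CPM. Which cell type the Ano1 reads came from was not tested. Ano1 stood at 7.71% to 8.42% of the CPM of Ager in the 4 hyperoxia libraries, hyperoxia 3 included, and at 3.44% to 7.87% in normoxia. Against the summed type 1 list it stood at 3.09% to 3.38% in hyperoxia and at 0.989% to 2.39% in normoxia. These ratios were chosen after the values were seen. With the epithelial score as a covariate, the log2 fold change of Ano1 was 0.17 (SE 0.443, edgeR adjusted p = 0.913), and with the mural score it was 1.37 (SE 0.409, adjusted p = 0.0687). The epithelial score separated the groups without overlap, 2.96 to 3.55 in normoxia and 4.66 to 6.10 in hyperoxia, so the part of these markers in the result cannot be told apart from that of the exposure.

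**Figure D2:**
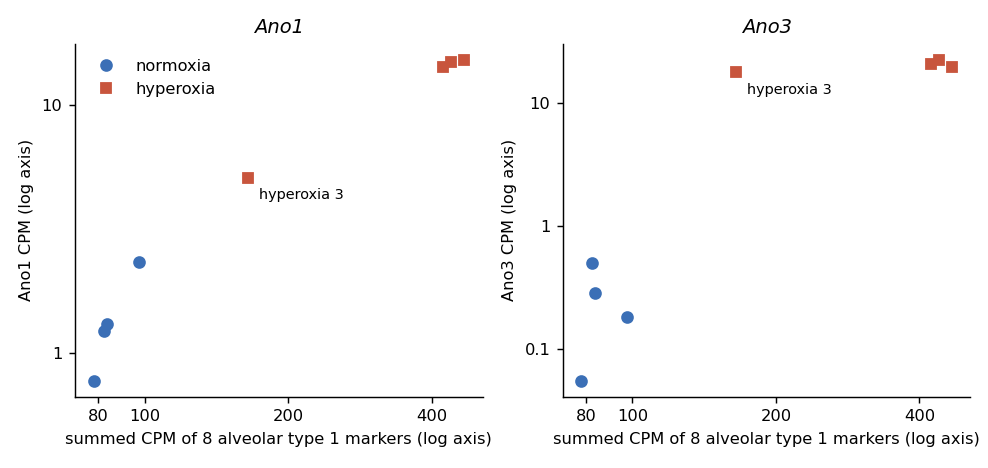
CPM of Ano1 and Ano3 plotted against the summed CPM of the 8 alveolar type 1 markers in each library (circles normoxia, squares hyperoxia; log axes). Ano1 in hyperoxia 3 lay low on both axes, at 5.09 and 165 CPM, whereas Ano3 in that library, at 17.6 CPM, was near the other hyperoxia libraries.

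Ano2, the calcium-activated chloride channel of olfactory neurons and photoreceptors, was close to undetected. It had 6 counts over the 4 normoxia libraries and 9 over the 4 hyperoxia libraries, with 0 to 4 counts in any library. It did not pass the filter, and in a fit without a filter its adjusted p was 0.775 (edgeR).

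Ano6 (ENSMUSG00000064210; chromosome 15, 95790843 to 95974751, plus strand), the scramblase TMEM16F that exposes phosphatidylserine on activated platelets, was the most abundant member. It stood at 187, 191, 188 and 202 CPM in normoxia and at 181, 184, 204 and 187 CPM in hyperoxia. The groups overlapped. The means were 192 ± 6.68 and 189 ± 10.4 CPM (SD, n = 4 each), with a log2 fold change of -0.02 (SE 0.0509, edgeR adjusted p = 0.761). An antisense gene, Gm49172, shares 122 exon bases with it (0.994% of its own) and was at 25.0 and 24.4 CPM. A130051J06Rik, also antisense, shares 214 bases (1.74%) and was at 1.18 and 1.22 CPM. Whether counting used strand is not given in the sources used here, so reads in such shared bases cannot be assigned to a strand.

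Ano8 (ENSMUSG00000034863; chromosome 8, 71476019 to 71485963, minus strand) stood at 67.6, 77.1, 60.5 and 64.8 CPM in normoxia and at 53.6, 53.7, 56.8 and 49.4 CPM in hyperoxia. Each hyperoxia library was below each normoxia library. The means were 67.5 ± 7.02 and 53.4 ± 3.07 CPM (SD, n = 4 each), a ratio of 0.791, and the gene fell by 0.34 on the log2 scale (SE 0.0735, edgeR adjusted p = 0.00328). Dda1 overlaps it on the opposite strand by 80 exon bases (1.17% of those of Ano8) and rose, from 62.3 to 72.3 CPM (adjusted p = 0.00559). With the epithelial score as a covariate the log2 fold change of Ano8 was -0.16 (adjusted p = 0.813), and with the mural score -0.31 (adjusted p = 0.248).

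Ano10 (ENSMUSG00000037949; chromosome 9, 122175874 to 122294423, minus strand), whose human counterpart is mutated in a recessive cerebellar ataxia, stood at 31.5, 31.7, 34.1 and 37.0 CPM in normoxia and at 39.3, 38.3, 40.01 and 38.6 CPM in hyperoxia. The groups lay close together without overlapping. The means were 33.6 ± 2.58 and 39.1 ± 0.765 CPM (SD, n = 4 each), a ratio of 1.16, with a log2 fold change of 0.22 (SE 0.0624, edgeR adjusted p = 0.0161). The estimate was 0.38 (adjusted p = 0.404) with the epithelial score as a covariate and 0.36 (adjusted p = 0.0881) with the mural score.

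**Figure D3:**
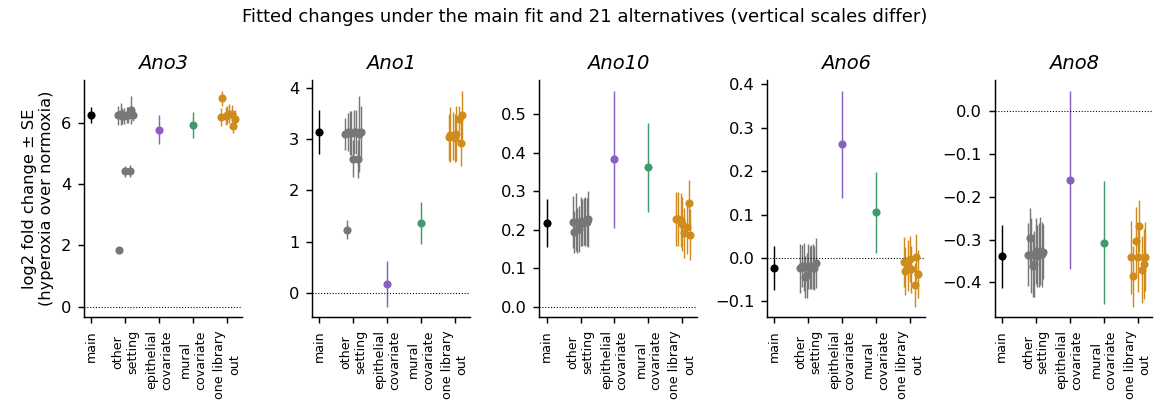
Log2 fold change (hyperoxia over normoxia) of the 5 tested members under the main fit and the 21 alternatives, with SE as bars, 0 as a dotted line and a vertical scale of its own for each gene. Ano3 stayed far above 0 throughout, at 5.78 to 6.80 on counts, 4.42 on log2(FPKM + 0.1) and 1.86 on log2(FPKM + 1). Ano1 came close to 0 with the epithelial score as a covariate. Ano8 lay between -0.39 and -0.16, Ano10 between 0.19 and 0.38, and Ano6 on either side of 0.

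The other 4 members, Ano4, Ano5, Ano7 and Ano9, were at or near the limit of detection, and none passed the filter. Ano9, a member known from epithelia, had 0 counts in every normoxia library and 5, 3, 4 and 2 counts in hyperoxia 1 to 4. Set against a floor of 3 counts over the normoxia group, this was 4.61-fold higher in hyperoxia. That ratio makes no allowance for sampling error in the few hyperoxia counts. In the fit without a filter (30282 genes, of which 18.9% passed) the edgeR adjusted p was 0.00738. Ano4 had 0 counts in normoxia and 3, 1, 0 and 0 in hyperoxia (adjusted p = 0.192 in that fit). Ano5, known for its role in skeletal muscle and bone, had 5 counts in normoxia and 12 in hyperoxia (adjusted p = 0.477). Ano7, a gene of the prostate, had 20 and 19 counts (adjusted p = 0.958). For Ano2, Ano4, Ano5 and Ano7 no difference was detected, and at these counts a small one could not have been.

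Per gene length, in the deposited FPKM values (fragments scaled to gene length and library size), the order of levels in normoxia was Ano6 (15.5 ± 0.544), Ano8 (9.78 ± 0.980), Ano10 (5.63 ± 0.441) and Ano1 (0.224 ± 0.105; SD, n = 4 for each). The libraries of neighbours in this order did not overlap. Below them came Ano7 (0.0722), Ano3 (0.0353), Ano2 (0.0163) and Ano5 (0.0094), whose libraries overlapped with those of the next in order, and Ano4 and Ano9 were at 0. In hyperoxia Ano3 came at rank 4, at 2.76 ± 0.267 FPKM, behind Ano6 (15.3 ± 0.872), Ano8 (7.75 ± 0.460) and Ano10 (6.57 ± 0.132) and ahead of Ano1 (1.97 ± 0.771). Even the lowest hyperoxia library of Ano3 (2.44 FPKM) was above the highest of Ano1 (2.41 FPKM).

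Summed over the family, FPKM came to 31.3 ± 0.989 for normoxia and to 34.5 ± 0.504 for hyperoxia (SD, n = 4 each). Ano6 made up 49.6% of it in normoxia and 44.3% in hyperoxia, Ano8 31.2% and 22.4%, and Ano10 16.5% to 19.4% over the normoxia libraries and 18.6% to 19.3% over the hyperoxia libraries. The share of Ano3 was 0.114% in normoxia and 7.99% ± 0.801 in hyperoxia, and that of Ano1 0.720% and 5.71% ± 2.26 (SD, n = 4).

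**Figure D4:**
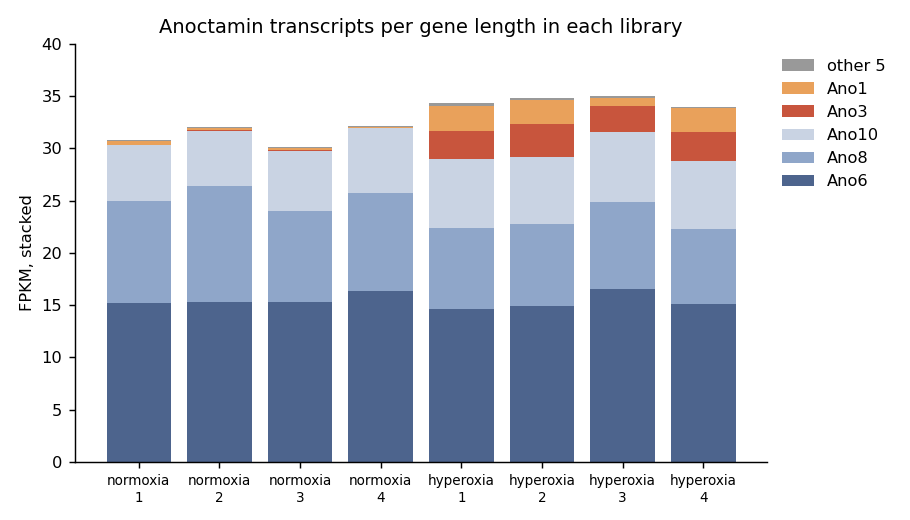
Stacked FPKM of the anoctamin genes in each library, with Ano2, Ano4, Ano5, Ano7 and Ano9 pooled as the other 5. Ano6, Ano8 and Ano10 made up nearly the whole sum in normoxia, and Ano3 and Ano1 appeared as further bands in hyperoxia, the Ano1 band being thin in hyperoxia 3.

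Genes with neighbouring functions were read from 6 lists holding 88 genes, of which 68 were tested. In all, 24 were higher in hyperoxia (35.3%, against 18.4% of all genes tested), 16 were lower (23.5%, against 17.2%) and 28 did not pass. The median log2 fold change was 0.09, against -0.0040 over all genes tested. With the epithelial score as a covariate 1 was higher and 1 lower, and with the mural score 8 and 6.

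Of the TMEM63 and TMC genes, the nearest relatives of the anoctamins, 3 of 6 tested were higher and 1 lower (median log2 fold change 0.32). Tmem63b, which like Tmem63a encodes an osmosensitive cation channel, rose from 57.4 to 73.9 CPM (log2 fold change 0.36, edgeR adjusted p = 0.00104). Tmem63a fell from 93.9 to 75.7 CPM (-0.31, adjusted p = 0.00181). Tmc7 rose from 8.76 to 12.1 CPM (0.47, adjusted p = 0.00909), whereas Tmc6 was at 90.2 and 85.9 CPM and Tmc8 at 28.0 and 33.7 CPM without passing.

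Among the other scramblase genes 2 of 11 tested were higher and 4 lower (median 0.04). Plscr1 fell from 91.6 ± 3.04 to 54.7 ± 2.53 CPM (SD, n = 4 each, log2 fold change -0.74, edgeR adjusted p = 4.783e-07) and Plscr4 from 79.4 to 53.8 CPM (-0.56, adjusted p = 3.98e-06). Vmp1, a scramblase of the endoplasmic reticulum needed for autophagosome formation, rose from 35.6 to 54.3 CPM (0.61, adjusted p = 1.156e-05). Plscr3, at 206 and 212 CPM, and Tmem41b, at 24.3 and 25.8 CPM, did not pass. Flippases, the ATPases and their partners that move phosphatidylserine back to the inner leaflet, had 4 of 15 higher and 5 lower (median 0.10). Atp8a1 rose from 155 to 259 CPM (0.74, adjusted p = 4.664e-06) and Atp11a from 322 to 399 CPM (0.31, adjusted p = 0.00197). Atp8b2 fell from 119 to 105 CPM (-0.17, adjusted p = 0.0488), with groups that overlapped. Tmem30a, the subunit that brings flippases to the cell surface, was at 228 and 246 CPM and Atp11b at 82.4 and 84.2 CPM, and neither passed.

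Of other chloride channel genes 6 of 15 tested were higher and 3 lower (median 0.05). Subunits of the volume-regulated anion channel were among them: Lrrc8c rose from 242 to 375 CPM (log2 fold change 0.63, edgeR adjusted p = 0.000882) and Lrrc8d from 52.4 to 68.7 CPM (0.39, adjusted p = 0.000714), and Lrrc8b, at 262 and 257 CPM, did not pass. Clcn7, the lysosomal chloride-proton exchanger, rose from 54.0 to 65.5 CPM (0.28, adjusted p = 0.00171), and Ttyh3, the most abundant gene named here, was at 893 and 897 CPM without passing. The cation chloride cotransporters, which set how much chloride a cell holds, had 2 of 7 higher and 1 lower (median 0.30). Slc12a2 (NKCC1), which loads cells with chloride, rose from 89.7 ± 2.49 to 210.5 ± 13.8 CPM (SD, n = 4 each, log2 fold change 1.23, adjusted p = 1.627e-08). Slc12a4 rose from 102 to 142 CPM (0.47, adjusted p = 9.326e-06) and Slc12a7 fell from 124 to 106 CPM (-0.23, adjusted p = 0.0351, groups overlapping), and both encode potassium chloride cotransporters. Slc12a9, at 28.4 and 26.3 CPM, did not pass.

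Genes of calcium entry and release, the signal that opens Ano1 and Ano6, had 7 of 14 higher and 2 lower (median 0.24). The mechanically gated channels Piezo1 and Piezo2 rose, from 412 to 520.3 CPM (log2 fold change 0.34, edgeR adjusted p = 0.00326) and from 470 to 646 CPM (0.46, adjusted p = 0.000168). Itpr3, a calcium release channel of the endoplasmic reticulum, fell from 206 to 119 CPM (-0.79, adjusted p = 6.69e-07). Stim2, a calcium sensor of store-operated entry, was at 182 and 170.3 CPM and Itpr1 at 84.8 and 78.2 CPM, and neither passed.

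**Figure D5:**
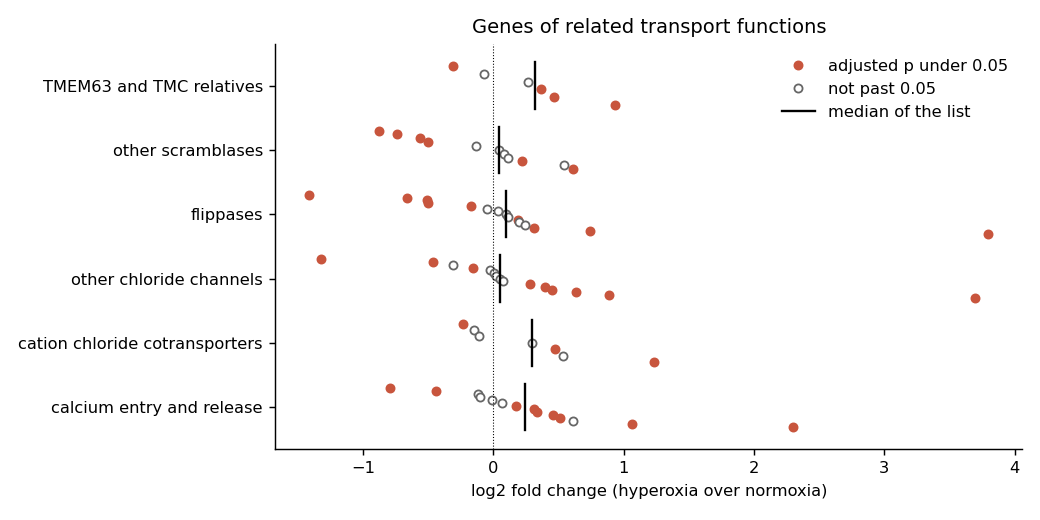
Log2 fold change (hyperoxia over normoxia) of the 68 tested genes of the 6 related lists, filled where the edgeR adjusted p was under 0.05 and open where it was not, with a bar at each list's median. The list medians lay between 0.04 and 0.32, and each list held genes that passed in either direction.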

How the data were processed

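Bulk RNA-seq of 8 libraries (4 normoxia, 4 hyperoxia) was grouped by the sample titles. The authors deposited raw counts per gene, made per the submitters' processing notes with HISAT2 2.0.5 and featureCounts 1.5.0-p3 on mm10, and FPKM values computed by the authors from gene length. The strand setting, the treatment of multi-mapping reads and the annotation release are not given in the sources used here. Gene positions matched GENCODE M21 for the 10 members. Counts were analysed with edgeR 4.0.16 (R 4.3.3): TMM scaling, filterByExpr, a robust quasi-likelihood fit of group, and Benjamini-Hochberg adjustment over 15564 genes (threshold 0.05). CPM used TMM-scaled library sizes, and log2 CPM a prior count of 2. Alternatives included DESeq2 1.42.0, limma 3.58.1 and marker scores as covariates. The script was tested on simulated data. Replicates differed from each other beyond sampling noise.

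The members and lists were chosen with earlier results of these data known. Named from each related list were the 3 genes with the highest mean CPM among those past the threshold and the 2 highest among those tested that were not. A result that this rule names is not reported here. The 5 genes most like Ano3 and genes overlapping a member were also named. Marker lists not described in the report gave these summed CPM in normoxia and hyperoxia. General capillary genes (1 of 6 higher, 4 lower) went from 8644 to 9993 down to 7169 to 8327. Fibroblast genes (4 of 7 tested higher) were at 93.1 to 174 and 140 to 362. Airway genes (0 of 2 tested passed) were at 1.53 to 3.20 and 2.44 to 3.25, with Krt5 at 0 in every library. Mesothelial genes (1 of 1 tested higher) were at 0.0552 to 0.735 and 0.859 to 2.00. The gene tested was Msln, at 0 to 0.612 and 0.744 to 2.00 CPM, which passed the filter through its hyperoxia libraries. Upk3b, Wt1 and Lrrn4 were at 0 to 0.222 CPM, with Upk3b at 0 in every hyperoxia library. Leukocyte genes (1 of 6 higher, 1 lower) were at 91.1 to 149 and 87.1 to 161, and platelet and erythroid genes (1 of 6 higher, 1 lower) at 68.9 to 116 and 58.3 to 85.0.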

Additional observations from a re-analysis of the deposited data

Results flagged for a closer look

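In 102 sets of 4 libraries, 5 had an extreme library past Dixon's limit, where chance gives 5.1. Ano1 in hyperoxia 3 was at 5.09 CPM, with the other hyperoxia libraries at 14.2 to 15.2 CPM. The alveolar type 1 list in the same library summed to 165 CPM, with the others at 424 to 468 CPM. The mural list summed to 53.3 CPM in normoxia 1 and to 26.6 to 30.2 CPM in the other normoxia libraries. Itpr1 was at 80.4 CPM in normoxia 3, with the others at 86.1 to 86.5 CPM, and Slc12a4 was at 132 CPM in hyperoxia 1, with the others at 144 to 146 CPM.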

How the results depend on the processing

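Across 21 alternatives the calls of Ano1 and Ano8 were lost with the epithelial and with the mural score as a covariate, and that of Ano10 with both and on log2(FPKM + 0.1) without a filter (adjusted p = 0.0505, limma). The members other than Ano3 called higher numbered 2 in the main fit, 3 without a low-count filter (Ano9 added), and 0 with either score (at an unadjusted p under 0.05, 0 with the epithelial and 2 with the mural score). On log2(FPKM + 0.1) without a filter they also numbered 2, but these were Ano1 and Ano9. Those called lower numbered 1, and 0 with either score (0 and 0 at an unadjusted p). DESeq2 and limma-voom, run without scores, each called 2 and 1. Related genes called higher went from 24 to 1 (epithelial) and 8 (mural), those called lower from 16 to 1 and 6, and calls over all genes to 232 higher and 68 lower and to 655 and 457. Both scores are tied to the groups, and the cause was not tested. Ano6, never called, changed sign to 0.26 (epithelial), 0.10 (mural) and 0.0019 (without normoxia 4). Leaving out each library gave 2 to 2 members higher, 1 to 1 lower, 20 to 25 related genes higher and 12 to 18 lower, with Ano6 at -0.062 to 0.0019, Ano1 at 2.93 to 3.48 and Ano3 at 5.90 to 6.80. On log2(FPKM + 0.1) and log2(FPKM + 1) Ano3 differed by 4.42 and 1.86, and Ano1 by 2.615 and 1.23. Same-numbered libraries did not deviate together (r = 0.119, 0.0361, -0.125 and -0.140), and a replicate block gave 2 members higher, 1 lower, 22 related genes higher and 13 lower (2657 and 2333 of all genes), with adjusted p of 0.000343 for Ano1, 0.00623 for Ano8 and 0.0308 for Ano10. Depth limits the 5 members below the filter.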

Other observations

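Some genes of the related lists with a log2 fold change over 1 in size lay outside the rule for naming genes, and they were picked after the values were seen. Cftr, the cAMP-gated chloride channel of epithelia, was at 0 to 0.245 CPM in normoxia and 0.630 to 2.46 CPM in hyperoxia, a log2 difference of 3.69 (SE 0.600, edgeR adjusted p = 0.000516). Tmem30b, a flippase partner subunit, was at 0 to 0.224 and 0.630 to 2.51 CPM (3.80, SE 0.590, adjusted p = 0.00037). Trpc6, a cation channel opened by diacylglycerol, was at 0.884 to 2.63 and 4.41 to 8.16 CPM (2.30, SE 0.344, adjusted p = 0.000453). Orai2, a pore subunit of store-operated calcium entry, rose from 28.5 ± 4.17 to 59.7 ± 2.90 CPM (SD, n = 4 each; 1.07, SE 0.0918, adjusted p = 4.47e-06). In the other direction, Atp8b5, a flippase gene, was at 1.19 to 1.90 and 0.114 to 1.28 CPM (-1.41, SE 0.500, adjusted p = 0.0454), with groups that overlapped, and Best1, a calcium-activated chloride channel of the retinal pigment epithelium, at 0.740 to 1.29 and 0.340 to 0.515 CPM (-1.33, SE 0.334, adjusted p = 0.00815). With the epithelial score as a covariate only 1 gene of the related lists was called higher and 1 lower, and with the mural score 8 and 6. The values of these genes in those fits are not given here, and the cause was not tested.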
